A study of Homo sapiens with 4 samples.

Results

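Nonmuscle myosin II and its regulators, followed here in K562 cells that carried the RUNX1::ERG fusion gene, were represented by 10 genes: the heavy chains MYH9, MYH10 and MYH14, the light chains MYL6, MYL9, MYL12A and MYL12B, and the kinases MYLK, ROCK1 and ROCK2. These 10 of the 25702 genes in the count tables were chosen by name, through their NCBI gene numbers. Their values were not part of the rule, but earlier results of these data were known when they were chosen. K562, an established human myeloid leukemia line, was transiently transfected with the LeGO-iG2 plasmid encoding RUNX1::ERG, and the control cells received the same plasmid without it (empty LeGO-iG2). RNA enriched for poly(A) was sequenced from 2 biological replicates of each group, and both groups shared the cell line, the plasmid backbone and its green fluorescent marker. In whole transfected cultures, fewer cells that express a gene and less RNA of it per cell cannot be told apart.

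Nonmuscle myosin II is the motor that pulls actin filaments together in cell division, migration and shape change. A molecule holds a pair of heavy chains, each with one essential and one regulatory light chain, and it assembles into filaments once the regulatory chain is phosphorylated by kinases such as myosin light chain kinase or the ROCK kinases. In the megakaryocyte lineage, MYH10 is known as a gene that RUNX1 represses while the cells become polyploid, MYL9 is a known RUNX1 target, and inherited MYH9 mutations cause large platelets and low platelet counts.

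The 3 regulatory light chains carry the phosphorylated site near their start, and their coding sequences are shown because the counts of these close relatives are compared with one another. The first 69 coding bases are given on the plus strand of GRCh37, for MYL9 at chr20:35173288-35173356, for MYL12A at chr18:3253246-3253314 and for MYL12B at chr18:3272897-3272965. Capitals mark the codons of the neighbouring threonine and serine that the kinases phosphorylate, which are codons 18 and 19 of MYL9 and MYL12B and codons 17 and 18 of MYL12A when the start methionine is not counted.
MYL9: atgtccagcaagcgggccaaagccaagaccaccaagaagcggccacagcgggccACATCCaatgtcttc
MYL12A: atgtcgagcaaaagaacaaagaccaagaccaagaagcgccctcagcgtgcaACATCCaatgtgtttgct
MYL12B: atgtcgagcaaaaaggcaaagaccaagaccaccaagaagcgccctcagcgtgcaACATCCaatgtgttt
All 3 genes had the same 6 bases at this pair of codons. Over the whole coding sequence MYL12A and MYL12B were identical at 95.7% of the aligned bases, MYL9 and MYL12A at 79.3%, and MYL9 and MYL12B at 80.8%. No stretch of 100 bases was shared between any pair of their transcripts, but the division of reads between MYL12A and MYL12B is the least certain of these, since how reads that match both were counted is not given in the sources used here.

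The promoters of MYH9 and MYH10 are shown because MYH14 supplied only 0.159% to 0.267% of the heavy chain counts and because the fusion keeps the DNA-binding domains of a RUNX and an ETS factor. The sequences are the 250 bases before the RefSeq start of each gene on GRCh38.p14, on the minus strand, at chr22:36387968-36388217 for MYH9 and at chr17:8630726-8630975 for MYH10. Capitals mark the letters TGTGGT or TGCGGT, taken as a RUNX motif, and CGGAAG or AGGAAG, taken as an ETS motif, each searched on both strands from 250 bases before the start to 50 after it.
MYH9: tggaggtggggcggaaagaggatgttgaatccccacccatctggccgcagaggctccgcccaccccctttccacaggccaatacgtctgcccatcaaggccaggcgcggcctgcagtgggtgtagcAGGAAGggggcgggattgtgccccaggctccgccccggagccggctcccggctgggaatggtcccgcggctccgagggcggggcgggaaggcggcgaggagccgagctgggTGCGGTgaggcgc
MYH10: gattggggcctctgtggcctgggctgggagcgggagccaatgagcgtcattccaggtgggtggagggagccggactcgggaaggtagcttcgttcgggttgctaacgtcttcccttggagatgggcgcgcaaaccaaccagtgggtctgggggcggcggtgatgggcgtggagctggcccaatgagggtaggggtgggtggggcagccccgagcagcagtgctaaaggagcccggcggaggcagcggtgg
In the MYH9 window the RUNX letters began 13 bases before the start, and the ETS letters began 124 bases before it and at base 30 after it. The MYH10 window held the RUNX letters once, from base 24 after the start, and no ETS letters.
MYH10 at chr17:8630685-8630714: aggcgctggatcTGTGGTcgcggctgggga
RUNX letters were present in 19.6% and ETS letters in 46.9% of the 35116 promoters of the same length, so these matches are common and are a description only. Promoters of 9 of the 10 genes were in the RefSeq table, in 14 entries. The windows of MYH14 and MYL6 held neither motif. Neither motif was found in the 1 MYLK window, at GRCh38.p14 chr3:123620499-123620798 on the minus strand. Its position cannot be compared directly with the GRCh37 span of MYLK given below. That window need not be the start of the full-length kinase transcript, so it gives no result for that promoter. MYL12A held RUNX letters 1 time and ETS letters 5 times in 1 of its 3 windows. MYL12B held ETS letters 5 times in 1 of 3, and the ROCK1 and ROCK2 windows held ETS letters only. MYL9 had no entry.

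Libraries held between 59695387 and 82352144 counts, and 66.7% to 68.9% of the counts from 1 to 10 were even, so both mates of a read pair may have been counted and counting intervals are then too narrow. The transfected fusion was visible in ERG, which was at 4 counts in both control libraries and reached 80443 and 27218 counts after RUNX1::ERG transfection. RUNX1 rose from 63.8 ± 21.0 to 593 ± 273 normalized CPM (counts scaled to a common library size, mean ± SD, n = 2 in each group, as for all values below). RUNX1::ERG replicates 1 and 2 were at 786 and 400 CPM for RUNX1, so replicate 1 was the higher for both genes. Reads of the fusion and of the cells' own RUNX1 cannot be told apart in these counts. The 8 erythroid markers summed to 11990 to 12050 CPM with the empty vector and to 13000 to 14360 with RUNX1::ERG. None of them was called, that is, none had an adjusted p under 0.05 in edgeR's quasi-likelihood test. They did not move together, as 5 of the 8 had a log2 fold change above 0. HBZ went from 966 and 1100 to 753 and 615 normalized CPM (log2 fold change -0.59, edgeR adjusted p = 0.05003). TFRC was at -0.57, with overlapping groups, and KLF1 at -0.12. Summed megakaryocyte markers went from 75.0 to 81.9 CPM to between 431 and 503 CPM, and 5 of the 8 were called higher, while GP9 had 0 to 2 counts in every library. The 6 markers of smooth muscle and fibroblasts summed to 55.7 to 57.7 and 66.4 to 74.7 CPM, with COL1A1 called higher and LUM at 0 counts in all 4 libraries. Without COL1A1 the sums were 52.2 to 53.6 and 46.8 to 52.1 CPM, and DES, the most abundant of the 6, was at 38.6 and 39.9 against 29.4 and 29.7 normalized CPM and was not called (log2 fold change -0.41). Lymphoid and monocyte markers summed to 9.36 to 11.3 and 22.2 to 24.5 CPM, with CD14 and LYZ called higher and MS4A1 at 0 counts. The sums over each whole list were higher in the RUNX1::ERG libraries, as were MYL9 and other genes named below, and the part of these markers in those results was not tested.

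All 10 genes passed the filter on low counts, and 1 of them, the regulatory light chain MYL9, was called higher in RUNX1::ERG cells, while none was called lower by edgeR. Over all 15394 genes tested, 3.64% were called higher, 1.15% lower and 4.79% in either direction. At an unadjusted p under 0.05 the count was also 1 of the 10 genes, against 2767 of all genes tested. In 5 of the 10, namely MYH9, MYL6, MYL9, MYLK and ROCK2, both RUNX1::ERG libraries lay above both empty vector libraries, and in none did both lie below. This happened in 25.1% of all genes tested for higher, in 22.1% for lower and in 47.2% for either direction. The median log2 fold change of the 10 genes was 0.28, beside -0.00 over all genes tested. No alternative scaling or test moved the median of all genes outside -0.01 to 0.04.

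**Figure D1:**
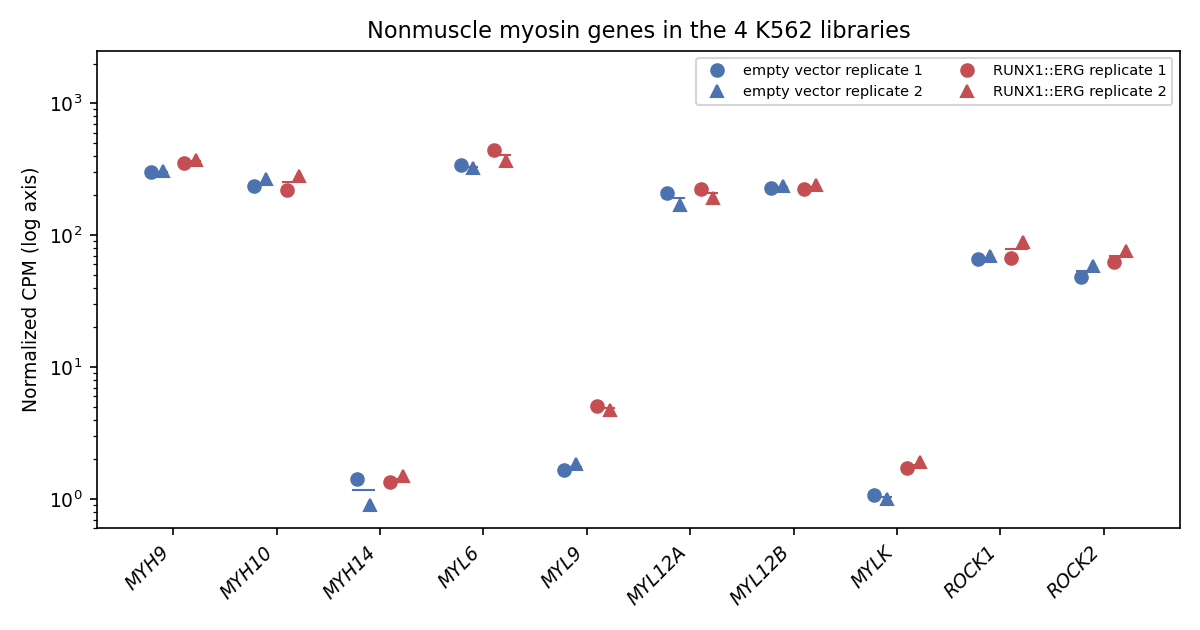
Normalized CPM (log axis) of the 10 genes in each of the 4 libraries, with circles for replicate 1, triangles for replicate 2, blue for the empty vector, red for RUNX1::ERG and a short line at each group mean. MYL9 stands at 1.66 and 1.84 CPM with the empty vector and at 5.09 and 4.70 with RUNX1::ERG, whereas the libraries of the groups interleave for MYH10, MYH14, MYL12A, MYL12B and ROCK1.

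MYH9, the heavy chain of nonmuscle myosin IIA (NCBI gene 4627, GRCh37 chr22:36677326-36784055, minus strand), had 18006 and 21489 counts with the empty vector and 29682 and 26933 with RUNX1::ERG. These were 299 and 305 CPM against 352 and 375 CPM, so both RUNX1::ERG libraries were the higher ones and the groups did not overlap. The means of 302 ± 4.08 and 363 ± 16.0 CPM gave a log2 fold change of 0.27 (standard error 0.14, 95% interval -0.05 to 0.58), which did not pass the threshold (edgeR adjusted p = 0.37). The difference was not called in any of the 11 alternative fits, which gave 0.21 to 0.31.

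MYH10, the heavy chain of nonmuscle myosin IIB (NCBI gene 4628, GRCh37 chr17:8377525-8534694, minus strand), had 14173 and 18702 counts with the empty vector and 18698 and 20250 with RUNX1::ERG. In CPM the lowest and the highest of the 4 libraries were both RUNX1::ERG libraries, at 222 and 282, with the empty vector libraries between them at 235 and 265. The means were 250.3 ± 21.1 and 252 ± 42.4 CPM. The log2 fold change of 0.01 (standard error 0.17, edgeR adjusted p = 0.99) had a 95% interval of -0.36 to 0.38, that is from 0.78-fold to 1.30-fold. Shifts within these bounds are compatible with the 2 libraries per group, and the bounds are not a limit of detection. The sign of the MYH10 change was not stable. It was -0.19 when RUNX1::ERG replicate 2 was left out and 0.17 when replicate 1 of that group was. With all 4 libraries kept it was -0.0039 with DESeq2 size factors and -0.0053 with the DESeq2 Wald test.

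MYH14, the heavy chain of nonmuscle myosin IIC (NCBI gene 79784, GRCh37 chr19:50691443-50813799, plus strand), was far below the other two. It had 86 and 64 counts with the empty vector and 113 and 107 with RUNX1::ERG, or 1.43 and 0.908 CPM against 1.34 and 1.49. The groups overlapped, and the log2 fold change of 0.28 (standard error 0.40, edgeR adjusted p = 0.79) had an interval from -0.60 to 1.16. Without empty vector replicate 2 it was -0.01.

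**Figure D2:**
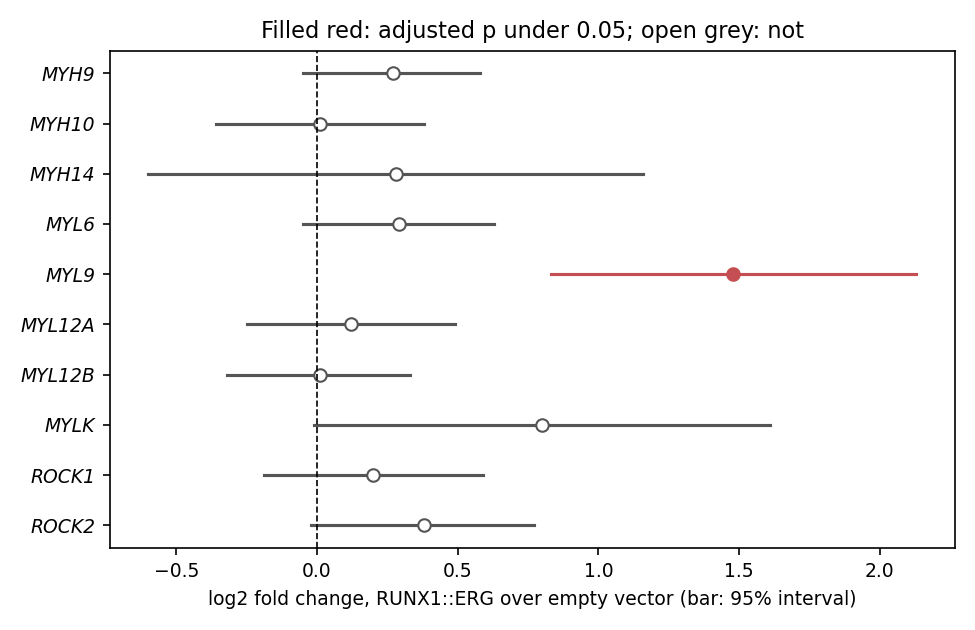
Log2 fold change of each of the 10 genes, RUNX1::ERG over empty vector, with its 95% interval from edgeR as a bar. The interval of MYL9, from 0.83 to 2.13, lies clear of the dashed line at 0, and those of the other 9 genes cross it.

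MYL9 (NCBI gene 10398, GRCh37 chr20:35169900-35179850, plus strand), the regulatory light chain typical of smooth muscle and platelets, rose 2.79-fold. It had 100 and 130 counts with the empty vector and 429 and 338 with RUNX1::ERG, which were 1.66 and 1.84 CPM against 5.09 and 4.70. The lowest RUNX1::ERG library was thus above the highest empty vector library, and the spread within each group was small beside the difference, at 1.75 ± 0.13 and 4.90 ± 0.27 CPM. The log2 fold change was 1.48 (standard error 0.30, 95% interval 0.83 to 2.13, edgeR adjusted p = 0.018). It ran from 1.41 to 1.56 over the alternative fits and was called in all of them except the fit without RUNX1::ERG replicate 1, where it was 1.42 with an edgeR adjusted p of 0.12. MYL9 remained a low-level transcript in both groups. Summed megakaryocyte markers were also higher in the RUNX1::ERG libraries. The smooth muscle and fibroblast sum was higher only with COL1A1 included, but without COL1A1 that sum is mostly DES, which was lower. Of the 5 tested markers of that list, 4 had a log2 fold change above 0. The part of either marker list in the MYL9 result was not tested.

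The other 2 regulatory light chains are made in most cell types and lie next to each other on chromosome 18. MYL12A (NCBI gene 10627, GRCh37 chr18:3247479-3256234, plus strand) was at 209.6 and 171 CPM with the empty vector and at 223 and 191 with RUNX1::ERG. Replicate 1 was the higher library in both groups, the groups overlapped, and the log2 fold change was 0.12 (standard error 0.17, 95% interval -0.25 to 0.49, edgeR adjusted p = 0.78), or -0.02 without empty vector replicate 2. MYL12B (NCBI gene 103910, GRCh37 chr18:3261477-3278459, plus strand) was at 226 and 236 CPM against 224 and 240.5, and the controls lay between the RUNX1::ERG libraries. Its log2 fold change was 0.01 (standard error 0.15, 95% interval -0.32 to 0.33, edgeR adjusted p = 0.99), and it was -0.00 with DESeq2 size factors and -0.06 without RUNX1::ERG replicate 2.

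MYL6, the essential light chain (NCBI gene 4637, GRCh37 chr12:56552130-56557280, plus strand), had 20592 and 22654 counts with the empty vector and 37442 and 26292 with RUNX1::ERG. In CPM these were 342 and 321 against 444 and 366, so the groups did not overlap, but RUNX1::ERG replicate 1 stood well above replicate 2. The log2 fold change of 0.29 (standard error 0.15, 95% interval -0.05 to 0.63) was not called (edgeR adjusted p = 0.37), and it was 0.14 without RUNX1::ERG replicate 1. Of its merged exons, 16.3% overlap SMARCC2 on the opposite strand and 2.01% overlap MYL6B on the same strand. The strand setting of the counting is not given in the sources used here, so reads of these genes cannot be told apart there.

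MYLK, the calmodulin-dependent myosin light chain kinase (NCBI gene 4638, GRCh37 chr3:123328896-123603179, minus strand), had 65 and 70 counts with the empty vector and 144 and 137 with RUNX1::ERG. These were 1.08 and 0.993 CPM against 1.71 and 1.91, so the groups lay apart, at means of 1.04 ± 0.06 and 1.81 ± 0.14. The log2 fold change of 0.80 (standard error 0.37, 95% interval -0.01 to 1.61) did not pass the threshold (edgeR adjusted p = 0.28), and it was called in none of the 11 alternative fits, which gave 0.71 to 0.88.

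ROCK1 and ROCK2 phosphorylate the regulatory light chain and also inhibit the phosphatase that reverses it. ROCK1 (NCBI gene 6093, GRCh37 chr18:18524573-18691774, minus strand) was at 66.4 and 69.0 CPM with the empty vector and at 67.2 and 88.6 with RUNX1::ERG. One RUNX1::ERG library lay among the controls and the other above them, and the log2 fold change was 0.20 (standard error 0.18, 95% interval -0.19 to 0.59, edgeR adjusted p = 0.62), or -0.02 without RUNX1::ERG replicate 2. ROCK2 (NCBI gene 9475, GRCh37 chr2:11319885-11488456, minus strand) was at 48.6 and 58.8 CPM against 62.9 and 76.5. Its groups did not overlap, and the log2 fold change of 0.38 (standard error 0.18, 95% interval -0.02 to 0.77) was not called (edgeR adjusted p = 0.30). It was 0.21 when RUNX1::ERG replicate 2 was left out and 0.25 when empty vector replicate 1 was. In both kinases replicate 2 was the higher library of each group. The pseudogene ROCK1P1, which resembles part of ROCK1, had 84 and 85 counts with the empty vector and 56 and 42 with RUNX1::ERG, few beside the 3999 to 6370 counts of ROCK1.

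Levels of different genes were compared per kilobase, with the length of the MANE Select transcript, one reference transcript per gene. With the empty vector the essential light chain MYL6 was highest, at 468 CPM per kb, followed by MYL12A and MYL12B at 198.5 and 198 CPM per kb, whose libraries overlapped. MYH9 at 40.5 and MYH10 at 32.5 CPM per kb came next and did not overlap with each other, then ROCK1 at 7.17 and ROCK2 at 6.43, whose libraries overlapped. MYL9 at 0.629, MYH14 at 0.169 and MYLK at 0.102 CPM per kb were lowest, and each lay above the next in both libraries. With RUNX1::ERG the order was the same except that ROCK2, at 8.35 CPM per kb, stood above ROCK1, at 8.25, again with overlap. The order of these kinases depended on the length used. Per kb of the longest transcript ROCK2 stood above ROCK1 in both groups, at 6.303 against 6.156 with the empty vector and 8.184 against 7.085 with RUNX1::ERG. MYL9 was at 1.76 CPM per kb there and kept its place between the ROCK kinases and MYH14. The K562 libraries of both groups thus held MYH9 and MYH10 as their main heavy chains and MYL12A and MYL12B as their main regulatory light chains.

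The share of each chain within its class does not depend on how libraries are scaled. Per base of the MANE Select transcript, a length chosen after the data were seen, MYH10 made up 43.1% and 45.6% of the 3 nonmuscle heavy chains with the empty vector and 37.8% and 42.0% with RUNX1::ERG. Both RUNX1::ERG values were below both controls, with means of 44.4% ± 1.79 and 39.9% ± 2.99 and a difference of -4.48 percentage points. A lower share is not a lower MYH10 level. In CPM the MYH10 means were 250.3 with the empty vector and 252 with RUNX1::ERG, and those of MYH9 were 302 and 363, with neither gene called. Per base of all annotated exons merged, the length chosen first, the shares were 28.9% and 31.1% against 24.6% and 28.0%, and the difference was -3.70 points. It was -1.99 points without RUNX1::ERG replicate 1 and -5.41 points when replicate 2 of that group was left out. The merged length is 32700 bases for MYH10, against 7707 for its MANE Select transcript, because 32 transcripts are annotated for it. MYH9 held 56.6% and 54.2% against 62.0% and 57.8% on the MANE Select length, and MYH14 held 0.174% to 0.291% over all 4 libraries. The exact two-sided permutation test gave p = 0.333 for the MYH10 share on either length, which is the smallest p that 2 libraries against 2 allow. A single library's share in counts carried a 95% Wilson interval no wider than 1.08 points, which covers counting error only, so the spread between replicates set the precision.

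**Figure D3:**
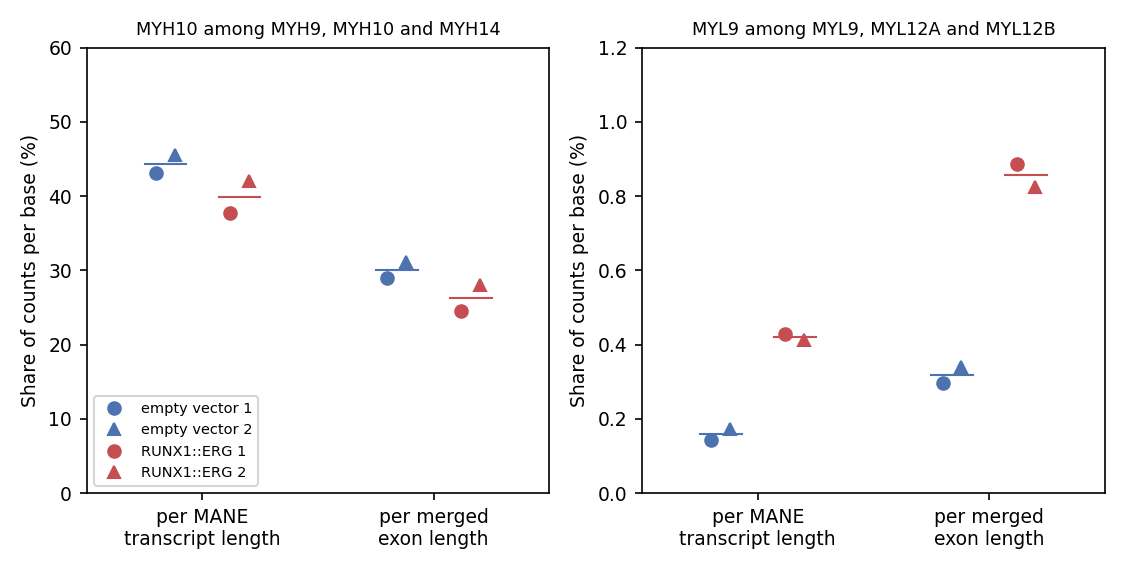
Percent of the 3 nonmuscle heavy chains that is MYH10 (left) and of the 3 regulatory light chains that is MYL9 (right), in counts per base of the MANE Select transcript or of the merged exons, with one symbol per library and a line at each group mean. The RUNX1::ERG libraries lie below the controls for MYH10 and above them for MYL9 on both lengths, while the height of the shares depends on the length used.

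MYL9 made up 0.144% and 0.173% of the regulatory light chains per base of the MANE Select transcript with the empty vector, and 0.428% and 0.414% with RUNX1::ERG. The means were 0.159% ± 0.021 and 0.421% ± 0.0099. On the merged exon length the means were 0.318% ± 0.032 and 0.856% ± 0.045, a difference of 0.538 percentage points against 0.262 on the MANE Select length, so the size of the shift in points depended on the length while its direction did not. The exact two-sided permutation test again gave its smallest possible p of 0.333. MYL12A and MYL12B supplied the rest, and the MYL12A share overlapped between groups, at 52.9% and 46.7% against 54.5% and 48.9% on the MANE Select length.

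Beyond the 10 genes, 97 genes in 5 lists cover other myosins and the pathway around them, of which 78 were tested. Of these, edgeR called 7 higher and 1 lower, beside 3.64% and 1.15% of all genes tested, and their median log2 fold change was 0.26. Of the 78, 43 lay apart in the higher and 10 in the lower direction, beside 25.1% and 22.1% of all genes tested. The number called was 2 when RUNX1::ERG replicate 1 was left out, 5 when its replicate 2 was, and 14 when empty vector replicate 1 was.

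Of 11 muscle myosin heavy chains, which build the thick filaments of muscle, 5 were tested, 1 was called higher and none lower, and their median log2 fold change was 0.68. The untested ones had at most 20 counts in any library. MYH6, the heavy chain of atrial heart muscle, had 2 and 6 counts with the empty vector and 71 and 41 with RUNX1::ERG, a log2 fold change of 3.51 (standard error 0.70, edgeR adjusted p = 0.017). As a ratio of summed counts relative to library totals, this was 12.1-fold with a 95% counting interval of 5.93 to 28.7. Without RUNX1::ERG replicate 1 the log2 fold change was 3.20 with an edgeR adjusted p of 0.11. MYH11, the smooth muscle heavy chain that partners MYL9 in that tissue, had 17 and 22 against 35 and 39 counts and was not called (log2 fold change 0.68, edgeR adjusted p = 0.59). Of 9 other myosin light chains, 4 were tested and none was called, with a median of 0.26. MYL4, the atrial and embryonic essential light chain, was the most abundant of them, at 118 ± 4.48 and 125 ± 3.72 CPM, with a log2 fold change of 0.09 (edgeR adjusted p = 0.83).

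Of 24 unconventional myosins, single motors that carry cargo or tether membranes to actin, 20 were tested, 2 were called higher and none lower, with a median of 0.38. MYO7A, known for its role in the sensory cells of the inner ear, had 20 and 21 counts with the empty vector and 372 and 167 with RUNX1::ERG. Its log2 fold change of 3.42 (standard error 0.45, edgeR adjusted p = 0.0017) was called in all 12 fits. MYO5A, a carrier of organelles along actin, had 73 and 67 against 279 and 276 counts, a log2 fold change of 1.73 (standard error 0.34, edgeR adjusted p = 0.016). The MYO5A call was lost when either RUNX1::ERG library was left out, at log2 fold changes of 1.83 (without replicate 1) and 1.60 (without replicate 2). MYO1G, a class I myosin of blood cells, had 33 and 4 against 64 and 27 counts and was not called (log2 fold change 0.94, edgeR adjusted p = 0.63). Without empty vector replicate 1 its log2 fold change was 3.29 and it was called (edgeR adjusted p = 0.007).

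Of 35 genes of light chain phosphorylation and the small GTPases upstream of it, 34 were tested, 3 were called higher and 1 lower, with a median of 0.24. RHOC, a small GTPase that activates the ROCK kinases, was the abundant one among them, at 224 and 238 CPM with the empty vector and 458 and 402 with RUNX1::ERG. Its libraries lay far apart between groups, and its log2 fold change of 0.90 (standard error 0.15, edgeR adjusted p = 0.0074) was called in all 12 fits. RHOA, its close relative, was at 117 ± 6.93 and 124 ± 5.34 CPM, with a log2 fold change of 0.09 (edgeR adjusted p = 0.84). RND3, an atypical small GTPase that inhibits ROCK1, had 2 and 4 against 28 and 38 counts, a ratio of 9.50 with a 95% counting interval of 4.14 to 26.8. Its log2 fold change of 3.19 (edgeR adjusted p = 0.040) was called in 8 of 12 fits, and not without RUNX1::ERG replicate 1 (3.48) or RUNX1::ERG replicate 2 (2.81). MYLK4, a relative of MYLK, had 23 and 19 against 114 and 76 counts, and its log2 fold change of 1.89 (edgeR adjusted p = 0.0499) was at the edge of the threshold and called in 7 of 12 fits. The call was lost without empty vector replicate 2 (1.65), RUNX1::ERG replicate 1 (1.70) or RUNX1::ERG replicate 2 (2.04).

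DAPK1, a death-associated kinase that can phosphorylate the regulatory light chain, was the one gene of these lists called lower. It was at 41.9 and 35.8 CPM with the empty vector and at 16.4 and 20.7 with RUNX1::ERG, so the groups did not overlap. The log2 fold change was -1.06 (standard error 0.20, edgeR adjusted p = 0.012), and -0.91 without RUNX1::ERG replicate 1, where it was not called (edgeR adjusted p = 0.08). The myosin phosphatase that removes the phosphate showed no call, with PPP1R12A, its targeting subunit, at a log2 fold change of 0.23 (95% interval -0.11 to 0.57, edgeR adjusted p = 0.51) and PPP1CB, its catalytic subunit, at 0.06 (-0.30 to 0.42, edgeR adjusted p = 0.91). The PPP1CB value turned to -0.10 without RUNX1::ERG replicate 2.

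Of 18 partners of the actomyosin filament, 15 were tested, 1 was called higher and none lower, with a median of 0.16. The one called, S100A4, a calcium-binding protein that takes MYH9 filaments apart, was named after its values were seen. It was at 6.26 and 6.89 CPM against 11.9 and 12.7, a log2 fold change of 0.90 (standard error 0.22, edgeR adjusted p = 0.046), called in 8 of 12 fits. The call was lost without empty vector replicate 1 (0.83), RUNX1::ERG replicate 1 (0.95) or RUNX1::ERG replicate 2 (0.84). The actins on which the motor pulls were far more abundant and were not called. ACTB was at 1756 ± 194 and 2269 ± 79.9 CPM, with a log2 fold change of 0.37 (95% interval 0.08 to 0.66, edgeR adjusted p = 0.15), and ACTG1 was at 679 ± 29.1 and 826 ± 85.5 CPM, with 0.28 (-0.03 to 0.59, edgeR adjusted p = 0.33). Both actins lay higher in both RUNX1::ERG libraries.

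**Figure D4:**
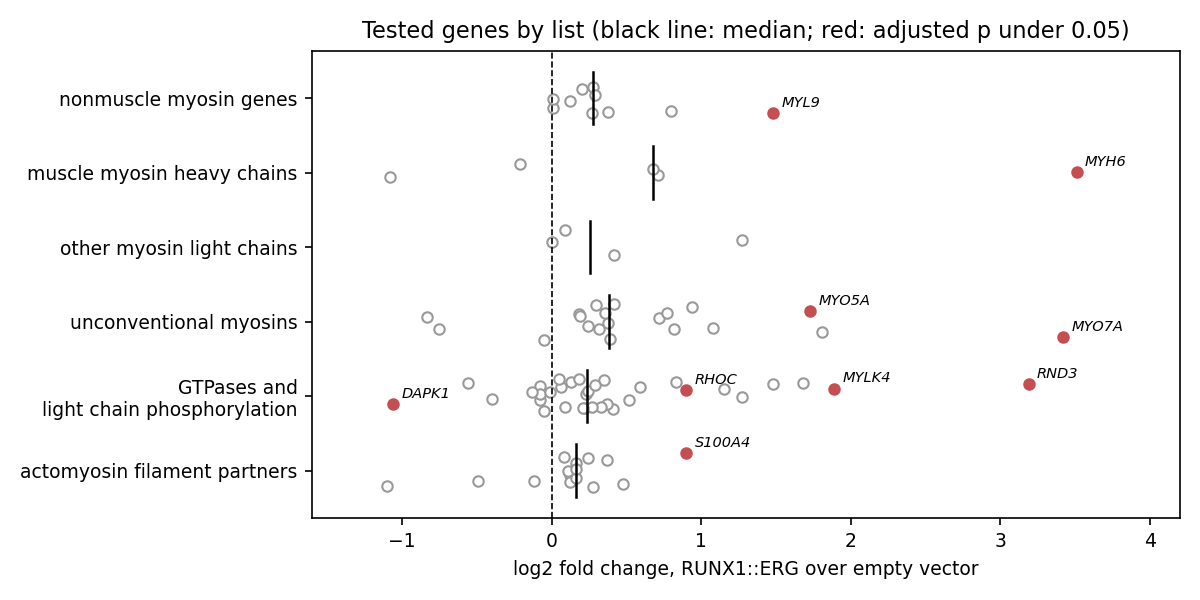
Log2 fold change of every tested gene of the 10 nonmuscle myosin genes and of the 5 further lists, RUNX1::ERG over empty vector, with red points for genes called by edgeR and a black line at each list's median. Most points lie between -0.5 and 1, and the called genes MYH6, MYO7A and RND3 stand farthest to the right.

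The genes whose levels over the 4 libraries were most like those of MYH9 and MYH10 were sought among 9138 genes with a mean of at least 10 CPM, by the Euclidean distance between centred log2 CPM values. Nearest to MYH10 were TIA1, at a distance of 0.012, and the zinc finger genes ZNF440 and ZNF761, both at 0.021. All 3 shared its pattern of a lowest and a highest value in the RUNX1::ERG libraries, TIA1 being at 85.9 and 96.0 CPM against 80.4 and 102. Among the 3 genes nearest to MYH9 were PPM1K at 0.028 and GOLPH3L at 0.029, and PPM1K was at 17.3 and 17.9 CPM against 20.9 and 22.1. With 4 libraries and this many genes searched, such near matches are a description of these libraries only.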

How the data were processed

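RNA from 4 K562 transfections, 2 biological replicates per group, was analysed. For each library the authors deposited unnormalized counts, one whole number per gene, and the submitters' processing notes name HISAT2 2.2.1, featureCounts 2.0.1 and hg19. The annotation and strand setting of the counting are not given in the sources used here, so overlapping genes are uncertain. A RefSeq gene table of GRCh38.p14 matched 92.2% of the 25702 gene numbers to symbols, and positions are from GENCODE on GRCh37. A count of 0 allows up to 3 counts, or 0.0364 to 0.0503 CPM per library, for counting error only. Replicates differed by more than sampling noise, with a chi-square per degree of freedom of 92.8 and 72.7.

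Counts were analysed in R 4.3.3 with edgeR 4.0.16 (TMM scaling, filterByExpr, the two-sided quasi-likelihood test without a replicate block, Benjamini-Hochberg adjustment over 15394 genes, threshold 0.05). "Called" means past that threshold, normalized CPM uses TMM library sizes, and summed CPM of a list uses library totals. The procedure was also run on simulated counts, drawn with the spread that the fit itself estimated and without a replicate effect. That run cannot show how the test performs on these libraries. Alternatives were DESeq2 1.42.0 size factors, library totals, no filter, halved counts, limma 3.58.1 voom, the DESeq2 Wald test, a replicate block and leaving out each library. Shares were compared by an exact permutation test. The MANE Select length was added after the data were seen.

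The 10 genes and the lists were chosen with earlier results of these data known. Named were these 10, up to 6 called genes per direction of the 5 lists together by size of the log2 fold change, MYH11, MYL4, MYO1G, RHOA, PPP1R12A, PPP1CB, ACTB and ACTG1, the label check genes, and the 3 genes most like MYH9 and MYH10, of which 1 is not reported here.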

Additional observations from a re-analysis of the deposited data

How the results depend on the processing

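MYH9 kept its direction and stayed uncalled in all 11 alternative fits (log2 fold change 0.21 to 0.31 when single libraries were left out). MYH10 changed sign between fits. It was -0.0039 with DESeq2 size factors, -0.0034 without the filter, -0.0029 with limma voom and -0.0053 with the DESeq2 Wald test, and it ran from -0.19 to 0.17 when single libraries were left out, with -0.075 without empty vector replicate 1. When single libraries were left out, MYL12B ran from -0.058 to 0.060, MYH14 from -0.015 to 0.64, MYL12A from -0.018 to 0.28, ROCK1 from -0.023 to 0.39 and PPP1CB from -0.095 to 0.19. MYL12B was also -0.0037, -0.0030 and -0.0052 with DESeq2 size factors, no filter and the Wald test. None of these was called in any fit, and the cause was not tested.

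The number of genes called was 737 in the main analysis, 1500 without the filter, 1194 with the DESeq2 Wald test and 354 to 1355 when single libraries were left out (354 without RUNX1::ERG replicate 1, 1289 and 1355 without empty vector replicates 1 and 2). One of the 10 genes was called in every fit except the one without RUNX1::ERG replicate 1 (0 to 1 when libraries were left out). Pathway genes called were 8, and 14 without the filter, 13 with the Wald test and 2 to 14 when libraries were left out. The difference in MYL9 share was 0.278 points with the longest transcript and 0.262 with the MANE Select transcript, since the genes differ in annotated length.

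Replicate numbers were not treated as pairs, since the labels name no shared batch. The deviations of the replicate 1 libraries from their group means correlated at r = 0.27 over 15394 genes. With the replicate number as a block, 1733 genes, 1 of the 10 genes and 20 pathway genes were called, MYH9 was at 0.27 and MYH10 at 0.00, and ACTB was called at 0.37 (edgeR adjusted p = 0.02). With 2 libraries per group and low depth for MYH14, MYL9 and MYLK, small changes are not detectable.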
